A study of Mus musculus with 2 samples.

Results

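Transcripts of 10 genes that build the meiotic chromosome axis and the synaptonemal complex were followed in germ cells of the fetal mouse ovary. The genes were Sycp1, Sycp2, Sycp3, Syce1, Syce2, Syce3, Tex12, 4930447C04Rik, Hormad1 and Hormad2, taken by symbol from the count matrices, and made up 10 of 27998 measured genes. Each symbol was found once in each library. The levels of these genes were described along meiotic prophase and between wild-type germ cells and germ cells without the glucocorticoid receptor (GR).

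In meiotic prophase the sister chromatids of each chromosome are held in loops along a protein axis. SYCP2 and SYCP3 form the core of this axis, which becomes the lateral element of the synaptonemal complex, and HORMAD1 and HORMAD2 are HORMA domain proteins that coat axes that have not yet paired. When homologous chromosomes synapse, SYCP1, the transverse filament, bridges the lateral elements like the teeth of a zipper. SYCE1, SYCE2, SYCE3, TEX12 and the product of 4930447C04Rik (also called Six6os1) form the central element in the middle of the bridge. In the mouse ovary these events take place before birth, and STRA8 acts at entry into meiosis.

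Both libraries were made from E15.5 embryonic ovaries of mice that carried an OCT4-GFP transgene (Pou5f1-EGFP), which labels germ cells, and the strain label of both names the Nr3c1tm1.1Jda allele. The KO library came from 2 pooled embryos that were homozygous for a deletion of exon 3 of Nr3c1, the gene of GR, and the WT library came from 4 pooled wild-type embryos. The deletion was made by crossing floxed mice to a β-actin Cre line, which acts in all tissues, so that every cell of a KO embryo carried it, somatic cells of the ovary included. GFP-positive germ cells were sorted, mixed with GFP-negative somatic cells at 60 to 40, and captured in droplets for sequencing of transcript 3′ ends tagged with unique molecular identifiers (UMIs). Each genotype is therefore 1 library with no replicate, no p-value is given, and genotype cannot be told apart from embryo pool, sort or capture. Intervals throughout are exact 95% intervals and cover counting error only.

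The genes lie on different chromosomes of the GRCm38 mouse genome, other than Sycp1 and Hormad1, which share chromosome 3. Among the axis genes, Sycp2 spans chr2:178345293-178407685 and Sycp3 spans chr10:88459569-88473236. Hormad1 spans chr3:95559677-95587671 and Hormad2 spans chr11:4345814-4441105. Sycp1, the transverse filament gene, spans chr3:102818499-102936100. Of the central element genes, Syce1 spans chr7:140777229-140787852, Syce2 spans chr8:84872111-84888221 and Syce3 spans chr15:89390174-89410503. Tex12 spans chr9:50556819-50561325 and 4930447C04Rik spans chr12:72881109-72940774. All 10 are annotated as protein coding, and none overlaps another gene on its own strand. Genes on the opposite strand overlap 6 of them, among these Chpt1 at Sycp3, Gcdh at Syce2, Il18 at Tex12 and Six6 at 4930447C04Rik, and their reads are told apart only where counting used the strand.

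The sequence around the gene start is shown for genes whose levels took different courses along prophase, described below. Sequences are from RefSeq on GRCm38.p6, read 5′ to 3′ on the strand of the gene. Those of Sycp3, Hormad1, Hormad2 and Sycp1 stop before the first base of the annotated gene. Letters of 2 motifs were searched on both strands in the 250 bases before each RefSeq start, and matches are in capitals. CNCCTCAG, the letters known for STRA8 and its partner MEIOSIN, was found in 2 of the 10 genes (Syce2 and Hormad2), against 7.39% of 27025 genes. TTCCCGC, the letters known for E2F factors, was found in 4 of the 10 (Sycp3, Hormad1, Syce2 and Tex12), against 4.38%. Sycp3 (chr10:88459337-88459568, plus strand) and Hormad1 (chr3:95559427-95559676, plus strand) hold the E2F letters, in which the first matching base lies 147 and 95 bases before the RefSeq start. For Sycp3 the last 18 bases before that start are not shown. Hormad2 (chr11:4441106-4441332, minus strand) holds the STRA8 letters 109 bases before the RefSeq start, and the last 23 bases before that start are not shown. Sycp1 (chr3:102936101-102936350, minus strand) holds neither. For Syce2, 30 bases (chr8:84872210-84872239, plus strand) show both motifs, which share 3 bases. They lie inside the annotated gene, in the first exon of transcripts that start at 84872111, and before a second RefSeq start only. The 250 bases before the first Syce2 start hold neither motif.
Sycp3: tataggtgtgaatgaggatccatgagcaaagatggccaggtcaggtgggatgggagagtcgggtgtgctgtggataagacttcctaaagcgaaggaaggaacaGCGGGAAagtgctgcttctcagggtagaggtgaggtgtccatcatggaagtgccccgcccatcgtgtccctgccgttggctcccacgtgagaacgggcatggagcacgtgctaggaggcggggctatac
Hormad1: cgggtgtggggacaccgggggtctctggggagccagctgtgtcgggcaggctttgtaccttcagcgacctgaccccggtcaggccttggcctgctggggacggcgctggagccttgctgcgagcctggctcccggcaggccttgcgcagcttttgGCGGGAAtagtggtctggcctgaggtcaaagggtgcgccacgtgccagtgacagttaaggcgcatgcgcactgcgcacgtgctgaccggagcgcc
Hormad2: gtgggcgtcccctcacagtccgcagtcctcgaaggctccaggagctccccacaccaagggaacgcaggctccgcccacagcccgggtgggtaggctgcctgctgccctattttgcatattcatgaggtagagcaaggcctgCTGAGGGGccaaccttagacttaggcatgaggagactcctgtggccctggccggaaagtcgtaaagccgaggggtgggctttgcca
Sycp1: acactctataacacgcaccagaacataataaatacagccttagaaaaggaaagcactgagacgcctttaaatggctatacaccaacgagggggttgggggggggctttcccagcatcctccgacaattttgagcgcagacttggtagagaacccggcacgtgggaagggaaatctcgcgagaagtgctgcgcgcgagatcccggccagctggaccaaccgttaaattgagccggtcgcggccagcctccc
Syce2: cagagggcgCTGAGGCGGGAAaagacggaa

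After the cell limits of the study, 9045 of 11430 WT barcodes and 15502 of 17829 KO barcodes were kept, with a median of 15685 and 10194.5 UMIs. Of these, 6809 WT and 10220 KO cells fell in clusters named germ-like from markers such as Ddx4 and Dazl, and 7 or 8 of the 8 germ markers were higher in each of these clusters. The libraries shared 75 barcodes, 27 of them among kept cells. Nr3c1 was counted at 71.8 CPM (UMIs of the gene per 1000000 UMIs of the cell group) in WT germ-like cells and at 11.6 in KO, which follows the labels, although 3′ tags lie outside the deleted exon and do not test the deletion itself.

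Germ-like cells were divided into stages by clustering without the 10 genes, on cells thinned to 3000 UMIs. Ordered by falling Stra8, the first stage was led by Rhox5, Rec8 and histone genes and is called Rhox5-led (235 WT and 449 KO cells). It was followed by a Stra8-led stage (473 and 1137 cells) and by recombination-like 1 cells (1322 and 1562) and recombination-like 2 cells (1755 and 3008), which carried markers of double-strand break formation and repair such as Prdm9, Meiob and Rad51ap2. Next came a large Myom3-led stage (2769 and 3772 cells), which too few markers defined to name. The last was a small stage led by Sohlh1, an oocyte transcription factor gene, with 84 WT but only 23 KO cells. In WT, Stra8 stood at 1655, 1214, 180, 39.3, 11.8 and 4.78 CPM along this order, and Prdm9, which marks sites of double-strand breaks, at 58.7, 231, 352, 233, 91.7 and 20.3 CPM. Cells led by Tchh (100 and 156) and cells with many somatic UMIs (71 and 113) were left out of the order. Median depth was unequal along it, from 25190 UMIs per cell in the Rhox5-led to 15670 in the Myom3-led stage in WT and from 17691 to 9682.5 in KO.

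Together the 10 genes were a sizeable part of the germ cell transcriptome. They held 0.450% of all UMIs in WT Rhox5-led cells, 0.805% in Stra8-led, 1.17% in recombination-like 1, 1.27% in recombination-like 2, 1.00% in Myom3-led and 0.860% in Sohlh1-led cells. In KO the shares were 0.480%, 0.917%, 1.25%, 1.40%, 1.16% and 0.891%. In both libraries the summed level was lowest in Rhox5-led cells and highest in recombination-like 2 cells. All 10 genes were higher in Stra8-led than in Rhox5-led cells beyond counting error, as were 31.5% of genes in WT and 30.1% in KO. From there their courses parted, as shown in the plot of levels by stage.

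**Figure D1:**
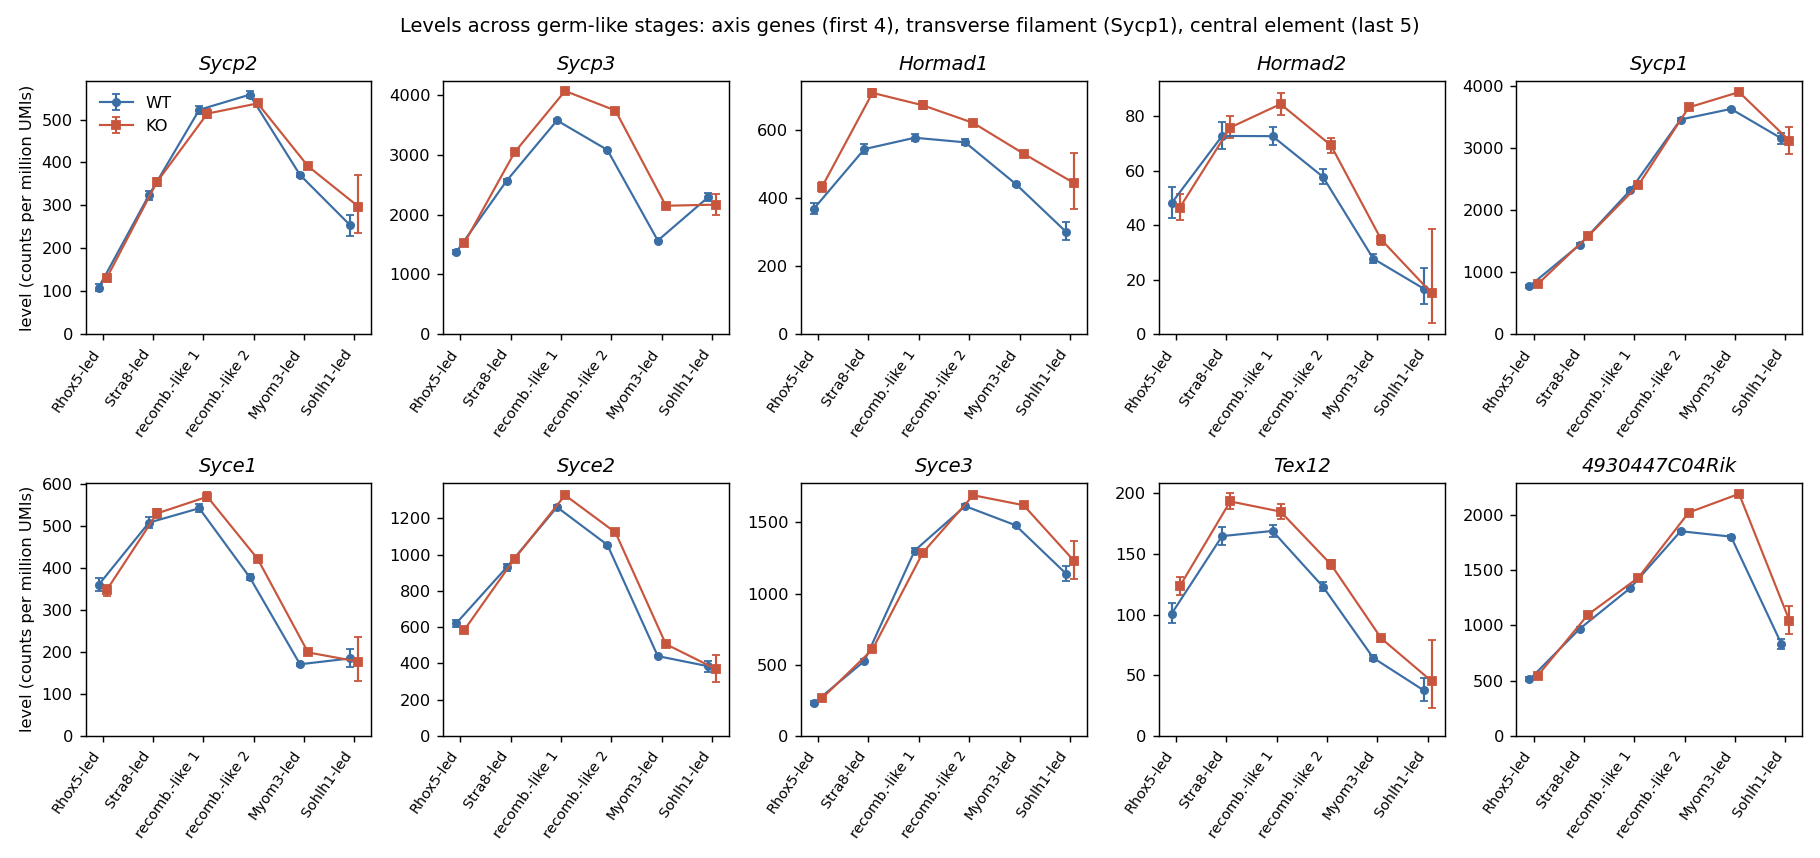
Level of each gene (y axis, CPM, from 0) in the 6 germ-like stages (x axis, in order of falling Stra8) in the WT library (blue circles) and the KO library (red squares), 1 library each, with exact Poisson 95% intervals of the counts. Sycp1, Syce3 and 4930447C04Rik stay high in Myom3-led cells, where Sycp3, Syce1, Syce2, Tex12 and Hormad2 are well below their highest stage.

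Sycp3, a core axis gene, was already abundant in the earliest cells. In WT it stood at 1374, 2566, 3574, 3081, 1566 and 2291 CPM from Rhox5-led to Sohlh1-led cells, and in KO at 1524, 3044, 4067, 3740, 2148 and 2167 CPM. Both libraries had their highest level in recombination-like 1 cells, 2.60-fold (WT) and 2.67-fold (KO) above the lowest. Sycp3 then stood lower in Myom3-led than in recombination-like 1 cells, by a log2 ratio of −1.19 (−1.20 to −1.18) in WT and −0.92 (−0.94 to −0.91) in KO. In WT it was higher again in Sohlh1-led cells, whereas the KO values of the last 2 stages were within counting error of each other.

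Sycp2, the partner of SYCP3 in the axis, was far lower in level and reached its highest stage later. Its WT levels were 108, 324, 523, 558, 371 and 253 CPM, and its KO levels 131, 355, 514, 538, 391 and 297 CPM. The highest level lay in recombination-like 2 cells in both libraries. The range was wide, 5.16-fold in WT and 4.12-fold in KO, since Sycp2 was scarce in Rhox5-led cells.

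The HORMA domain genes had their highest levels in Stra8-led or recombination-like 1 cells. Hormad1, whose product also promotes double-strand breaks, was at 369, 543.5, 577, 563, 442 and 301 CPM in WT and at 433, 709, 672, 620.5, 530.2 and 444 CPM in KO. This was the flattest course among the 10 genes, 1.92-fold in WT and 1.64-fold in KO. Hormad2, which acts in surveillance of unsynapsed chromosomes, had the lowest levels of the 10, at 48.1, 72.7, 72.6, 57.7, 27.7 and 16.7 CPM in WT and 46.4, 75.8, 84.4, 69.2, 34.6 and 15.0 CPM in KO. Its Sohlh1-led values rested on 28 UMIs in WT and 4 in KO. The highest stage of Hormad2 in WT could not be placed, because Stra8-led and recombination-like 1 cells differed by a log2 ratio of 0.00 (−0.12 to 0.12).

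Sycp1, which joins the axes at synapsis, took another course. In WT it stood at 776, 1445, 2321, 3463, 3634 and 3158 CPM, and in KO at 806, 1578, 2403, 3658, 3905 and 3122 CPM. Its level increased up to the Myom3-led stage in both libraries, 4.68-fold above the Rhox5-led cells in WT and 4.84-fold in KO. The lead of Myom3-led over recombination-like 2 cells was small, with a log2 ratio of 0.07 (0.06 to 0.08) in WT and 0.09 (0.08 to 0.10) in KO.

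The central element genes divided by course. Syce3, which encodes a small central element protein, had the widest range of the 10 genes, from 232 CPM in Rhox5-led to 1614 in recombination-like 2 cells in WT (6.96-fold) and from 265 to 1690.2 CPM in KO (6.37-fold). It kept 1479.6 (WT) and 1620.4 CPM (KO) in Myom3-led cells. 4930447C04Rik was close to this pattern, with 510.0, 969, 1336, 1849, 1800 and 832 CPM in WT and 543, 1096, 1429, 2018, 2187 and 1042 CPM in KO. Its order of the last large stages differed between the libraries: Myom3-led cells were below recombination-like 2 cells in WT (log2 ratio −0.04, −0.05 to −0.02) and above them in KO (0.12, 0.10 to 0.13). This difference between the libraries was not tested.

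The other central element genes, Syce1, Syce2 and Tex12, had low levels in Myom3-led cells. Syce2 went from 622 CPM in Rhox5-led to 1262 in recombination-like 1 cells and down to 441 in Myom3-led cells in WT, and from 585 to 1329 and 507 CPM in KO. Syce1 stood at 359, 542 and 171 CPM in the same stages in WT and at 347, 569 and 199 in KO. Tex12, whose product forms filaments with SYCE2, stood at 101, 169 and 64.4 CPM in WT and at 123, 185 and 80.4 in KO. For Tex12, Stra8-led and recombination-like 1 cells did not differ beyond counting error in either library (log2 ratio of the highest over the next stage 0.04, −0.04 to 0.12 in WT, and 0.06, −0.00 to 0.13 in KO). By stage, the transcripts of central element proteins were thus at unlike levels, with Syce3 and 4930447C04Rik still high in Myom3-led cells and Syce1, Syce2 and Tex12 low there. UMI counts of 3′ ends do not scale with transcript length, but capture of each 3′ end may differ between genes.

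Another order of the same cells gave another course. Germ-like cells of each library were ranked by a score of prophase genes against premeiotic genes and cut into 20 equal bins. In both libraries 9 of the 10 genes were highest in the last bin, Syce1, Syce2, Tex12, Hormad1 and Hormad2 among them, and Syce3 was highest in bin 14 in WT and bin 15 in KO. Syce3 passed the midpoint between its lowest and highest bin by bin 2 in WT and bin 3 in KO. In WT, Syce2 and Hormad2 passed theirs by bin 10, Hormad1 by bin 11, Tex12 by bin 15 and Syce1 by bin 17. In KO these were bins 6, 18, 3, 2 and 8. Each is the first bin past the midpoint, and the level could fall back below it. In KO, Tex12 stood at 138 CPM in bin 2 and at 125 in bin 4. It was past its midpoint in 5 bins in WT and 8 in KO, and Syce1 in 4 and 6. The first bins therefore do not time these genes or set the libraries apart. The last bin was not the stage with least Stra8, which stood there at 91.9 CPM in WT, against 11.8 CPM in Myom3-led cells. Of the prophase genes in the score, Smc1b stood at 2804 CPM in WT Myom3-led cells, against 3972 in recombination-like 2 cells. Stag3 (219 against 318 CPM) and Hfm1 (153 against 236) were also lower there, and Msh4 was higher (34.0 against 27.9). A high score is thus not shown to mark the latest cells. Which genes come early and which late depends on the order used, and the order by stage rests on falling Stra8.

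Against all genes, the members often passed a 2-fold limit between stages. From Rhox5-led to recombination-like 1 cells, 6 of 10 genes (Sycp1, Sycp2, Sycp3, Syce2, Syce3 and 4930447C04Rik) were higher by 2-fold or more in WT, where 8.98% of 9036 genes with at least 100 UMIs were, and the same 6 in KO, where 8.46% of 8982 genes were. From recombination-like 1 to Myom3-led cells, Sycp3, Syce1, Syce2, Tex12 and Hormad2 were lower by 2-fold or more in WT, against 6.92% of genes. In KO these were Syce1, Syce2, Tex12 and Hormad2, against 6.6% of genes. Stages are clusters of the same cells, so these counts describe the stages and test nothing. Over the 5 steps between neighbouring stages, 45 of 50 changes had the same sign in both libraries. The exceptions were Hormad1, Hormad2 and Tex12 from Stra8-led to recombination-like 1 cells, 4930447C04Rik from recombination-like 2 to Myom3-led cells, and Syce1 at the last step.

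**Figure D2:**
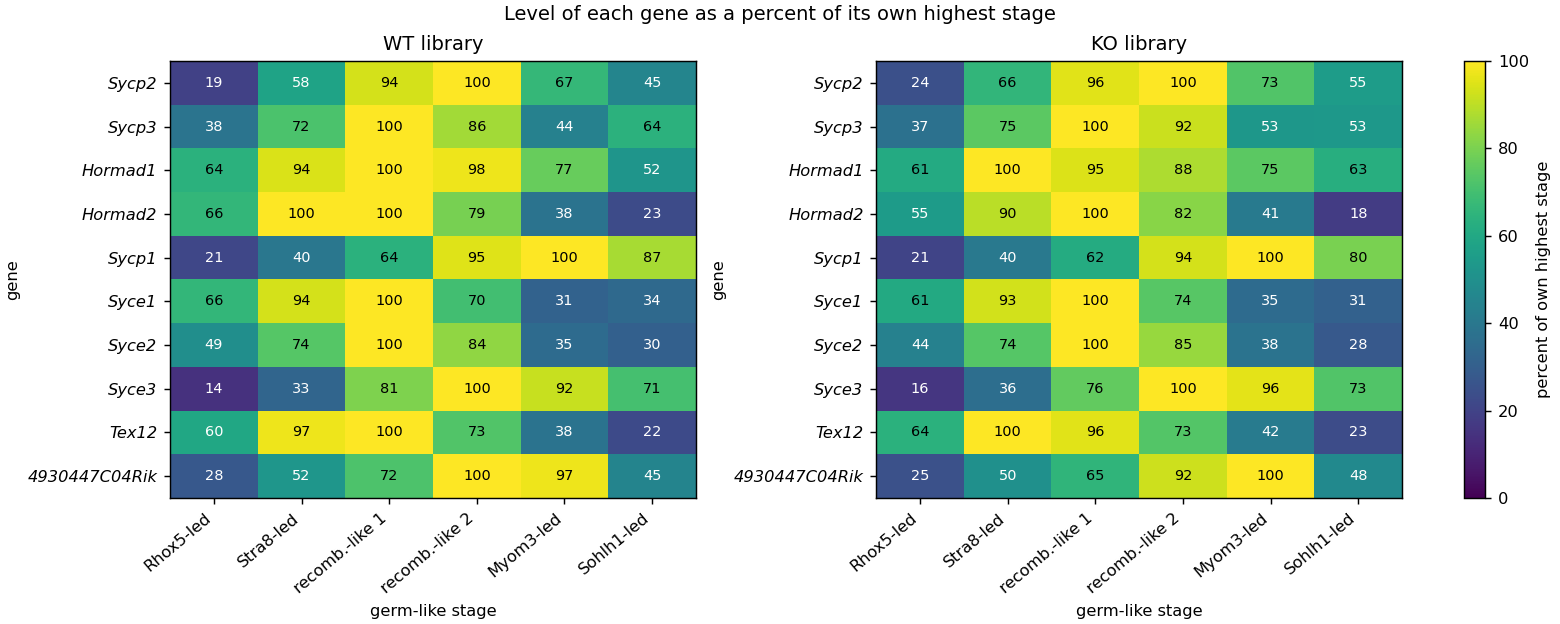
Level of each gene (rows) in each germ-like stage (columns) as a percent of that gene's own highest stage, in WT (left) and KO (right), with the percent written in each cell and shown by colour. In WT Myom3-led cells, Sycp1, Syce3 and 4930447C04Rik stand at 92 to 100%, while Syce1, Syce2, Tex12 and Hormad2 stand at 31 to 38%.

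The balance between Sycp1 and Sycp3 transcripts therefore shifted along the stages, and Sycp3 does not stand for the other axis genes. The score bins did not show such a shift at their end. Their last bin held Sycp1 at 3646 and Sycp3 at 3502 CPM in WT, and 3846 and 4156 CPM in KO. The ratios below thus hold for the order by stage only. For each Sycp3 UMI, WT cells held 0.565 Sycp1 UMIs (0.545 to 0.586) in the Rhox5-led stage and 0.563, 0.649 and 1.12 in the next 3 stages. The ratio was 2.32 (2.30 to 2.34) in Myom3-led and 1.38 (1.32 to 1.44) in Sohlh1-led cells. In KO it was 0.529, 0.519, 0.591, 0.978, 1.82 and 1.44 in the same order. Both libraries thus had more Sycp3 than Sycp1 UMIs in early cells and more Sycp1 in Myom3-led cells, and the KO ratio was the lower in the first 5 stages. The Syce2 to Sycp3 ratio moved the other way in WT, from 0.453 in Rhox5-led to 0.281 in Myom3-led cells, and from 0.384 to 0.236 in KO.

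Within a stage, cells differed in level. A WT Myom3-led cell held a median of 55 Sycp1 UMIs, with 23 at the 10th and 103 at the 90th percentile, and 22 Sycp3 UMIs, with 9 and 46. In KO Myom3-led cells the values were 36 (15 and 70) for Sycp1 and 19 (7 and 42) for Sycp3 at lower depth. After thinning every cell to 3000 UMIs, the variance over cells divided by the mean was 1.98 for Sycp1 and 1.79 for Sycp3 in WT Myom3-led cells and 1.89 and 2.01 in KO. It lay between 0.995 and 1.03 for Tex12, Syce1 and Hormad2 in the WT cells, near the value of 1 that random sampling alone gives. The ratio increases with the mean, so it does not rank the genes by variability.

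Shares of cells with at least 1 UMI were compared on thinned cells. Sycp3 was detected in 94.0% of WT Rhox5-led cells and in 97.4 to 100% of the cells of each later WT stage, and Sycp1 in 83.0% and then 96.8 to 100%. Syce3 was found in 43.8% of WT Rhox5-led, 74.0% of Stra8-led and 96.8% of recombination-like 1 cells. Tex12 was found in 38.4% and Hormad2 in 20.7% of WT recombination-like 1 cells, their highest shares in WT. Before thinning, Sycp3 was counted in 99.99% of WT and 99.94% of KO germ-like cells.

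Somatic cells gave the background of this measure. In WT granulosa-like cells (median 12588 UMIs, against 17116 in germ-like cells), thinned shares were 20.1% for Sycp3, 20.02% for Sycp1, 13.3% for Syce3, 1.63% for Tex12 and 0.326% for Hormad2. In KO (8493 against 11323.5 UMIs) they were 28.8%, 27.4%, 18.5%, 3.55% and 1.28%. In Rhox5-led cells the share was above that of granulosa-like and theca-like cells for each of the 10 genes in both libraries. The levels in CPM were less clear of the background. Syce3 in theca-like cells was at 182 CPM in WT, 78.7% of its Rhox5-led level, and at 333 CPM in KO, 126% of it. Theca-like cells of KO also held Sycp1 at 90.7%, Sycp2 at 79.5% and 4930447C04Rik at 77.4% of the KO Rhox5-led level. In CPM the lowest stage of these genes, Syce3 included, is thus not clear of the somatic level, unlike their shares of cells. Theca-like cells had a median of 10059.5 UMIs in WT and 6485 in KO, against 25190 and 17691 in Rhox5-led cells. Equal UMIs per cell give a higher CPM at lower depth, so these percents do not compare UMIs per cell. How the somatic UMIs came about was not tested. The 10 genes summed to 990.2 CPM in WT and 1940.3 CPM in KO granulosa-like cells, to 1636 and 2827 CPM in theca-like cells, and to 1057 and 1352 CPM in epithelia-like cells.

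As a percent of the germ-like level, the somatic level of the 10 genes had a median of 9.49% in WT and 16.8% in KO granulosa-like cells, 15.8% and 24.4% in theca-like cells, and 9.83% and 11.1% in epithelia-like cells. The 8 germ markers used to name the cells had like medians, of 10.3% and 16.2%, 15.2% and 23.3%, and 10.3% and 12.2%. The medians of members and germ markers thus lay within a few percent of each other in each class, and both were higher in KO than in WT. The part of this background in the germ-like levels was not tested.

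Syce2 was the exception among the 10 genes. Its somatic percent was 23.1% in WT and 29.7% in KO theca-like cells and 16.9% and 17.2% in epithelia-like cells, above each of the other 9 genes and above the highest germ marker (16.3% and 26.1% in theca-like and 11.1% and 14.5% in epithelia-like cells). The UMI ratio of Syce2 to Sycp3 in epithelia-like cells was 0.577 (0.533 to 0.623) in WT and 0.458 (0.434 to 0.482) in KO. In recombination-like 2 cells it was 0.342 (0.338 to 0.347) and 0.3002 (0.297 to 0.304). In WT, Syce2 was detected in more thinned epithelia-like cells than Sycp3 was (19.3% and 16.8%), with overlapping intervals. Gcdh lies across Syce2 on the opposite strand.

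**Figure D3:**
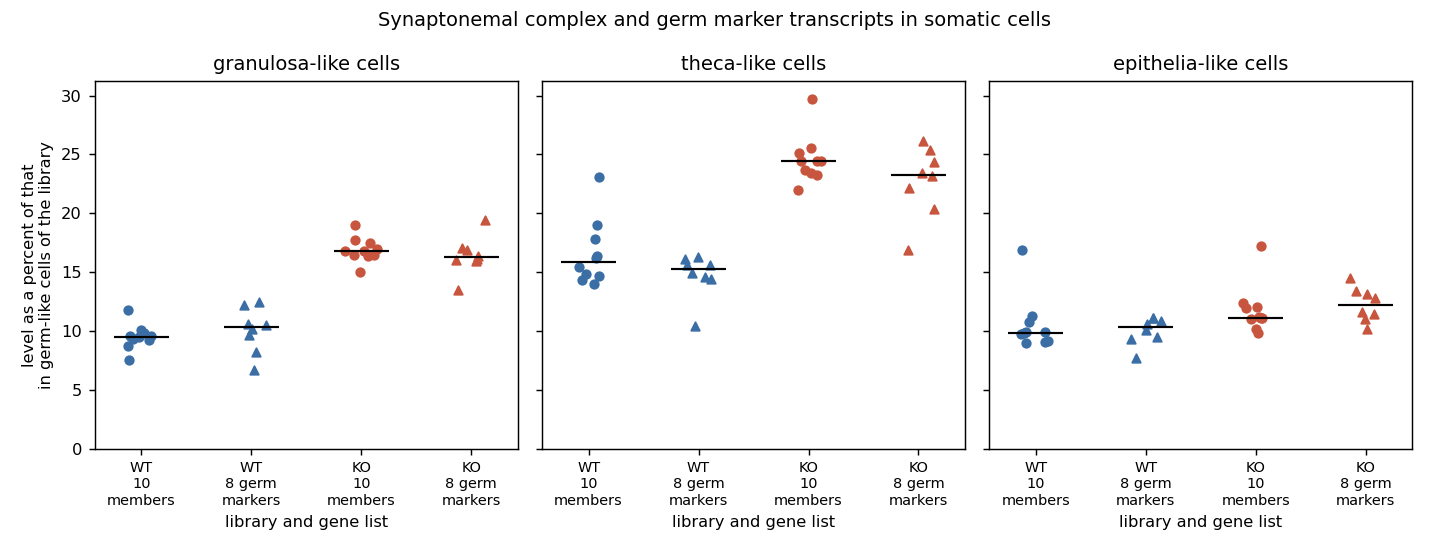
Level in 3 somatic classes (granulosa-like, theca-like, epithelia-like) as a percent of the level in germ-like cells of the same library (y axis, from 0), for the 10 synaptonemal complex and axis genes (circles) and the 8 germ cell markers (triangles) in WT (blue) and KO (red), with medians as bars. Circles and triangles overlap in each class, and the highest circle in theca-like and epithelia-like cells is Syce2.

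WT and KO were then compared within each stage. Cells of a stage need not be at the same point of prophase in both libraries. Stra8, which orders the stages, had KO over WT log2 ratios of 0.81, 0.88 and 1.13 in recombination-like 1, recombination-like 2 and Myom3-led cells. The KO levels were slightly higher for most of the 10 genes, and the differences were small. Over all germ-like cells the KO over WT log2 ratio of the 10 genes had a median of 0.16, ranging from −0.00 for Sycp2 to 0.30 for Sycp3, where the median of 13830 genes was −0.05. By stage the median of the members was 0.12 in Rhox5-led (all genes 0.02), 0.15 in Stra8-led (−0.02), 0.09 in recombination-like 1 (−0.00), 0.13 in recombination-like 2 (−0.04) and 0.24 in Myom3-led cells (−0.05). In Sohlh1-led cells, where 8 members had at least 100 UMIs over both libraries, it was 0.05 (−0.05).

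Few of these differences passed the size limit of the study. That limit was 0.25 on a natural-log scale of UMIs per 10000, with 1 added before the log, written ln(CP10k + 1). None of the 10 genes passed it over all germ-like cells, where 0.174% of genes did. None passed in Rhox5-led (0.308% of genes), Stra8-led (0.283%), recombination-like 1 (0.247%) or recombination-like 2 cells (0.181%). Sycp3 passed in Myom3-led cells (0.185% of genes) and Hormad1 in Sohlh1-led cells (4.24%). The limit is harder to reach at low levels, because of the 1 added before the log. Over all germ-like cells a gene at the WT level of Hormad2 had to be 1.86-fold higher in KO to pass and at that of Tex12 1.54-fold, against 1.29-fold to 1.37-fold for the other 8 genes, and 73.8% of all genes tested needed over 2-fold. With 1 library per genotype no test of these differences exists, and they have no replicate check.

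**Figure D4:**
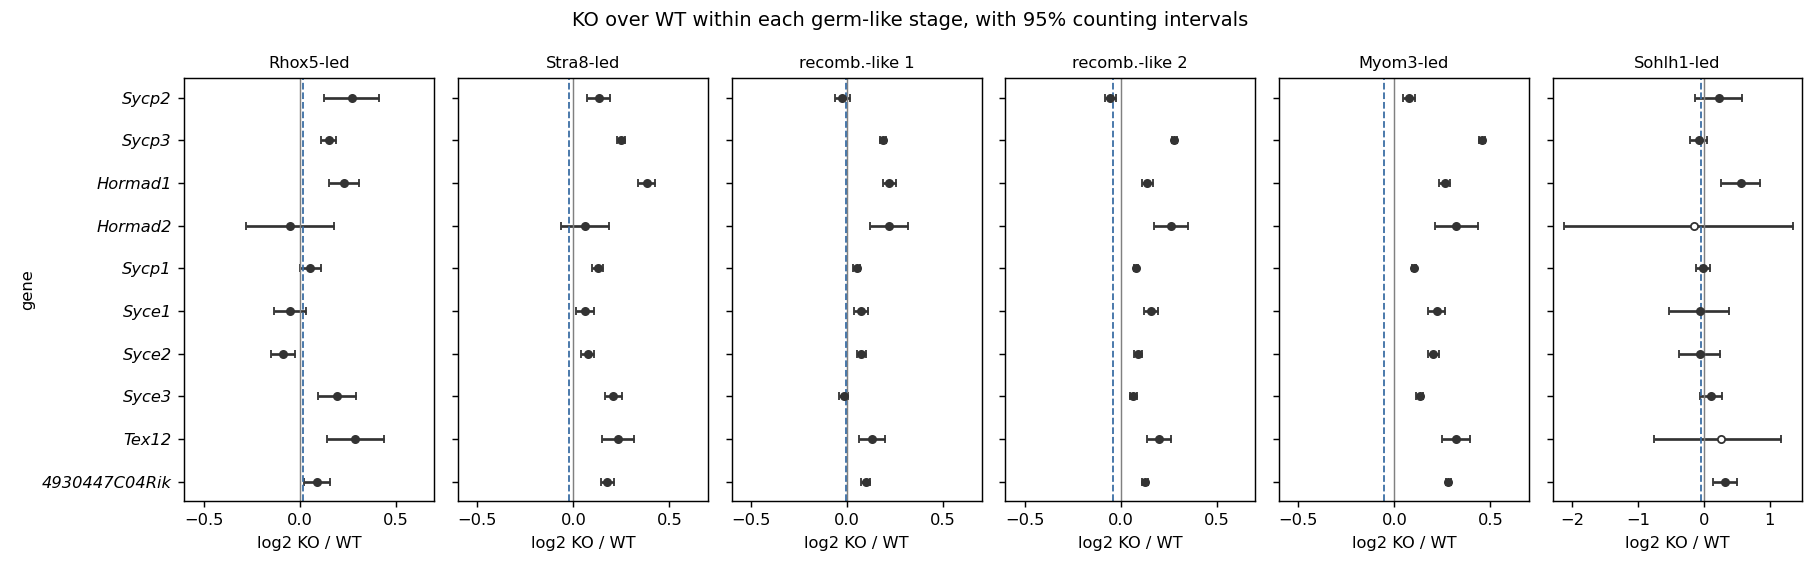
KO over WT log2 ratio (x axis) of each gene (rows) in each germ-like stage (panels), with exact 95% intervals of the counts. Open points had under 100 UMIs over both libraries, the dashed line is the median of all genes, and the Sohlh1-led panel has a wider axis. Most points lie right of 0, with Sycp3 at 0.46 in Myom3-led cells.

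Sycp3 had the largest ratio of the 10 genes in Myom3-led cells. It was 2148 CPM in KO against 1566 in WT, a log2 ratio of 0.46 (0.44 to 0.47), or 1.37-fold. Its difference in ln(CP10k + 1) was 0.30, and 97.7% of all genes had a lower ratio. In the 4 earlier stages the ratio was 0.15, 0.25, 0.19 and 0.28, with each interval above 0. In Sohlh1-led cells it was −0.08 (−0.21 to 0.05), on 576 KO and 3835 WT UMIs. It did not pass the limit with stages built on all UMIs, without the library term, or by score bins. There the log2 ratio was 0.26, 0.34 and 0.30 in clusters or bins named Myom3-led after most of their cells.

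Hormad1 was higher in KO in every stage, by log2 ratios of 0.23, 0.38, 0.22, 0.14, 0.26 and 0.56 from Rhox5-led to Sohlh1-led cells. All 6 intervals lay above 0. Only the Sohlh1-led value, 0.56 (0.26 to 0.85) on 118 KO and 504 WT UMIs, passed the limit, and it rested on 23 KO cells. Without cells that held 3 or more somatic marker UMIs it did not pass. Hormad2 stood at 0.22, 0.26 and 0.32 in recombination-like 1, recombination-like 2 and Myom3-led cells and did not differ beyond counting error in the other stages.

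Sycp2 stood apart from its axis partner. Its ratio was 0.27 (0.13 to 0.41) in Rhox5-led and 0.13 (0.07 to 0.19) in Stra8-led cells, −0.02 (−0.06 to 0.01) in recombination-like 1 and −0.05 (−0.08 to −0.02) in recombination-like 2 cells, and 0.08 (0.04 to 0.11) in Myom3-led cells. In Sohlh1-led cells it was 0.23 (−0.14 to 0.58). Sycp1 was within 0.13 of 0 in every stage, and its ratio over all germ-like cells was 0.03 (0.02 to 0.04).

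The central element genes had small ratios. Tex12 was at 0.29, 0.23, 0.13, 0.20 and 0.32 in the first 5 stages, with each interval above 0. 4930447C04Rik was at 0.09, 0.18, 0.10, 0.13 and 0.28 in these stages and at 0.32 (0.13 to 0.51) in Sohlh1-led cells. Syce3 ranged from −0.02 to 0.21, Syce1 from −0.06 to 0.22 and Syce2 from −0.09 to 0.20 over the 6 stages. Syce2 in Rhox5-led cells and Sycp2 in recombination-like 2 cells were the only members whose interval lay below 0 in any stage. Of all genes, 10.1% had an interval below 0 in Rhox5-led and 23.4% in recombination-like 2 cells. All 10 intervals lay above 0 in Myom3-led cells, where 17.8% of all genes had an interval above 0 and 29.3% below.

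The overall ratio was also computed at equal stage composition. With both libraries standardised to the pooled stage shares, the median of the 10 ratios was 0.16, as without, and all 10 were above 0 (9 without). Sycp3 stayed at 0.30 and Sycp1 moved from 0.03 to 0.09. Stra8 itself had a KO over WT log2 ratio of −0.05 in Rhox5-led and 0.09 in Stra8-led cells, and 0.81, 0.88 and 1.13 in the next 3 stages. The somatic background was higher in KO as well, with a median log2 ratio of the members of 0.96 in granulosa-like cells, 0.79 in theca-like cells and 0.31 in epithelia-like cells. Neither part in the germ-like ratios was tested.

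Genes that work beside the complex were counted from fixed lists, over all germ-like cells and against the same limit. Of all 13830 genes compared there, 0.174% passed the limit, 20.4% had an interval above 0 and 36.4% below. Of 5 axis and cohesin partners (Rec8, Rad21l, Smc1b, Stag3 and Smc3), none passed the limit and 4 had an interval above 0. Smc1b, a cohesin subunit of meiosis, was at 3198 CPM in WT and 3809 in KO, a log2 ratio of 0.25 (0.25 to 0.26). In Stra8-led cells 2 of the 5 were above and 2 below 0, where 16.5% of all genes were above and 18.0% below. Rec8 was among those below, at −0.33 (−0.52 to −0.15), but stood at 0.41 (0.31 to 0.50) over all germ-like cells. Its level was 171 CPM in WT and 178 in KO Rhox5-led cells, 38.0 and 30.2 in Stra8-led cells and 1.61 and 1.59 in Myom3-led cells. Rhox5-led cells were 3.45% of WT and 4.39% of KO germ-like cells, and Stra8-led cells 6.95% and 11.1%. The partner counts were not standardised to stage shares, and the part of these shares was not tested. Of 5 HORMAD partners and removers (Ccdc36, Mei4, Rec114, Ankrd31 and Trip13), none passed and 3 were above 0. TRIP13 removes HORMADs from synapsed axes, and its transcript was at 35.2 and 34.9 CPM. Of 8 synapsis and crossover factors none passed, with 3 above and 3 below 0, among them Hfm1, a crossover helicase gene, at −0.13 (−0.16 to −0.10).

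Of 6 genes that tether telomeres to the nuclear envelope (Terb1, Terb2, Majin, Sun1, Ccdc155 and Spdya, with Terb1, Terb2 and Majin under older symbols in the files), none passed the limit, 5 were above and 1 below 0. Spdya was at 267 CPM in WT and 309 in KO, or 0.21 (0.19 to 0.23). Among 9 X-linked genes of the Xlr family, whose proteins resemble SYCP3, 3 passed the limit with higher KO levels. These were Xlr4a (114 and 184 CPM), Xlr4b (129 and 228) and Xlr4c (107 and 174), with log2 ratios of 0.70, 0.82 and 0.69. Xlr genes are near-identical copies, and how their reads were divided makes the single values uncertain. The median over the 9 genes was 0.67, against 0.16 for the 10 members. By stage, 1, 2, 3 and 1 of the 9 passed the limit with higher KO levels in the first 4 stages and 0 in Myom3-led cells. In Sohlh1-led cells 1 passed with a lower KO level, Xlr4c at −1.37 (−2.72 to −0.28).

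Genes whose course was most like that of the summed members were sought in WT over the same 20 bins. The 10 closest of 6369 genes were Trmt10a (Pearson r = 0.996), Tsga10 (0.995), Fam114a2 (0.9905), Hspb11 (0.9901), Ift88 (0.989), Ankrd31 (0.989), Cep290 (0.988), Anapc16 (0.986), Primpol (0.986) and Lztfl1 (0.986). In KO their r lay between 0.969 and 0.998. Trmt10a went from 97.1 CPM in its lowest to 350.3 in its highest bin. Such values are common along an ordered axis, since 8.23% of the 6369 genes had an r over 0.9, and bins share libraries and neighbouring cells. Of the members, Sycp2 (0.996) and 4930447C04Rik (0.995) were closest to the sum, and Syce1 (0.682) and Hormad2 (0.683) farthest from it. The sum includes the gene itself and is weighted to abundant genes, so these values do not rank the members.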

How the data were processed

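The deposited values are raw UMI counts of each gene in each cell barcode, which the authors made with Cell Ranger and did not normalize. The file headers give its version as 3.0.2, and the submitters' processing notes name mm10 and Seurat 3.2.3. Strand settings and the treatment of multi-mapped reads are not given in the sources used here. Total depth was 168483330 UMIs in WT and 186117981 in KO.

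The limits of the study were applied: in WT, 5500 to 40000 UMIs and 1500 to 6500 genes, in KO, 3000 to 30000 UMIs and 1200 to 5500 genes, and in both, a mitochondrial share under 10%. No doublet caller was run. Cells were clustered on ln(CP10k + 1) of 2000 variable genes, with 30 principal components, 20 neighbours and Leiden resolution 0.5 (leidenalg 0.10.2, seed 1). Cell classes were named anew from fixed markers and may hold other cells than those of the study. Germ-like cells were clustered again after thinning to 3000 UMIs, without the 10 genes, with library and mitochondrial and ribosomal shares regressed out. How stages were named was decided with the clusters in view.

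UMIs were summed per stage and library. Ratios of CPM carry exact conditional binomial intervals, CPM exact Poisson intervals and shares exact Clopper-Pearson intervals (SciPy 1.17.1), all at 95%. A comparison took genes that had 100 UMIs or more in its groups together. Named genes were the 10 members, the partner lists as counts, and the 10 genes outside members and stage lists most like the summed members in WT, at 20 CPM or more in a bin. The members, lists and rules were chosen with earlier results of these data known. Positions and overlaps are from GENCODE M21, which holds 27645 of the 27998 gene identifiers. Alternatives changed scaling, depth, cell limits, somatic UMIs, the summary over cells, the stages, the size limit and the UMI minimum. Those with stages from all UMIs, without the library term, and without shared barcodes were chosen after seeing the data.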

Additional observations from a re-analysis of the deposited data

Results flagged for a closer look

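For 2 genes the KO over WT ratio lay on opposite sides of 0 in different stages, with counting intervals clear of 0 on both sides. Sycp2 had log2 ratios of 0.27 in Rhox5-led, 0.13 in Stra8-led, −0.053 in recombination-like 2 and 0.076 in Myom3-led cells. Syce2 had log2 ratios of −0.088 in Rhox5-led, 0.073 in Stra8-led, 0.074 in recombination-like 1, 0.091 in recombination-like 2 and 0.20 in Myom3-led cells. With 1 library per genotype the difference between stages was not tested.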

How the results depend on the processing

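No paired analysis was possible because each genotype is 1 library. The median KO over WT log2 ratio of the members stayed above 0 in every stage under every alternative run. It moved beyond counting error as follows. Scaled without mitochondrial, ribosomal and haemoglobin genes it was 0.14 over all germ-like cells and 0.053 in recombination-like 1 cells. With cells thinned to 3000 UMIs it was 0.20 in Rhox5-led, 0.23 in Stra8-led and 0.048 in recombination-like 1 cells. Common cell limits gave 0.14 over all germ-like cells and 0.033 in Rhox5-led cells, and leaving out cells with 3 or more somatic marker UMIs (1050 WT and 940 KO) gave 0.14 over all germ-like cells. Stages from all UMIs gave 0.21 in Rhox5-led, 0.091 in Stra8-led and 0.14 in Myom3-led cells, and stages without the library term 0.20 in Stra8-led, 0.11 in recombination-like 2 and 0.16 in Myom3-led cells. Score bins gave 0.088 in bins where most cells were recombination-like 2 and 0.18 where most were Myom3-led. The causes were not tested.

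The count of members past the size limit in Myom3-led cells, 1 (Sycp3), was 0 with stages from all UMIs, without the library term, by score bins, or at a limit of 0.5. The count in Sohlh1-led cells, 1 (Hormad1), was 0 without cells with somatic marker UMIs or at 0.5. Of 710 ratios of single members and stages, 679 kept their sign and 31 did not, and none of those that changed sign had passed the limit. The highest stage of a gene was the same in 193 of 240 repeats and another in 47. In other divisions of the germ-like cells, each cluster or bin took the name of the stage that held most of its cells. Score bins, here 4 over both libraries, thus carried only 2 of the 6 stage names. Resolution 0.3 carried 4, and resolution 1.0 and stages from all UMIs 5, and no value exists for the other names. Only 43.9% of cells kept their stage by score bins and 67.7% with stages from all UMIs. Values under a stage name there cover another mix of cells. Depth limits Hormad2 and Tex12 in Sohlh1-led cells, and KO values there rest on 23 cells.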

Other observations

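Some groups of cells lay outside the stages and the main somatic classes. Cells led by Tchh (100 WT and 156 KO) held Stra8 at 380.3 CPM in WT and 466 in KO, between the Stra8-led and recombination-like 1 stages. Their Sycp3 level was 2058 CPM in WT and 2340 in KO, their Sycp1 level 1112 and 999, and their Syce3 level 521 and 503. In small somatic classes the summed level of the 10 genes differed widely between the libraries. It was 186 CPM in 30 WT and 2774 CPM in 136 KO endothelia-like cells, and 225 CPM in 31 WT and 2194 CPM in 51 KO immune-like cells. Erythroid-like cells (15 WT and 54 KO) held 4270.1 and 6277 CPM, where the Rhox5-led sums were 4498 and 4803 CPM.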
